A study of Mus musculus with 8 samples.

Results

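Creatine kinase and adenine nucleotide cycle genes were followed in mouse quadriceps as a set of 10 genes. These were the creatine kinase genes Ckm, Ckb and Ckmt2, the creatine supply genes Gatm, Gamt and Slc6a8, the adenylate kinase gene Ak1, and the purine nucleotide cycle genes Ampd1, Ampd3 and Adss1. They were chosen by gene symbol, and all 10 were found among the 35494 symbols of the deposited count table. All 10 also passed the filter on low counts, which left 14112 genes for the test. The quadriceps came from 8 male wild-type C57BL/6 mice that were 8 weeks old when assigned to a group. In the scMC38 group, 4 mice were injected subcutaneously with 1.0 M cells of MC38 (a line derived from mouse colorectal cancer), and in the control group 4 mice were given PBS alone in the same volume. Muscle was taken at day 28 in both groups. The model rests on 1 tumour line at 1 site, the series title calls its cachexia mild, and whole muscle was sequenced, so cells other than muscle fibres contribute RNA.

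Muscle holds a reserve of high-energy phosphate as phosphocreatine. Creatine kinases pass the phosphate between creatine and ADP: the mitochondrial form, encoded by Ckmt2, charges creatine where ATP is made, and the cytosolic muscle form, encoded by Ckm, recharges ADP at the myofibrils and the calcium pump. Ckb encodes the cytosolic form typical of brain, smooth muscle and osteoclasts. Creatine is made by the successive action of the products of Gatm and Gamt, mostly in kidney and liver, and muscle takes it up through the transporter encoded by Slc6a8. When ATP is used faster than it is made, adenylate kinase (Ak1) joins ADP pairs into ATP and AMP. AMP deaminase (Ampd1 in muscle, Ampd3 in red cells and other tissues) then turns AMP into IMP, and adenylosuccinate synthetase (Adss1 in muscle) starts the return of IMP to AMP. Ampd3 is known as a gene that is induced in wasting muscle.

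The 250 bases before the annotated start are shown for Ckm, the most abundant of the 10 mRNAs, and for Ckb and Gatm, which were both highest in scMC38 3 and had their 2 lowest values in scMC38 2 and scMC38 4. The sequences are from RefSeq (GRCm38.p6), where 8 of the 10 genes had an entry, and Slc6a8 and Ampd1 did not. They are written 5′ to 3′ along the gene's own strand. Capitals mark matches to the E-box, spelled CANNTG. They also mark the TATA box, spelled TATAAA, and the CCAAT box, whose name spells it. Both strands were searched, and no matches overlap in these windows. The Ckm window lies at chr7:19410844-19411093 on the plus strand, the Ckb window at chr12:111672339-111672588 on the minus strand and the Gatm window at chr2:122611278-122611527 on the minus strand.
Ckm: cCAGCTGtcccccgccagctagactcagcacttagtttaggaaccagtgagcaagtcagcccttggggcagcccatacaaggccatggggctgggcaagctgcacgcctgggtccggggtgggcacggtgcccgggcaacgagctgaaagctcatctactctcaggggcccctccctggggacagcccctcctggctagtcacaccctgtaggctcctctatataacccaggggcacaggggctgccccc
Ckb: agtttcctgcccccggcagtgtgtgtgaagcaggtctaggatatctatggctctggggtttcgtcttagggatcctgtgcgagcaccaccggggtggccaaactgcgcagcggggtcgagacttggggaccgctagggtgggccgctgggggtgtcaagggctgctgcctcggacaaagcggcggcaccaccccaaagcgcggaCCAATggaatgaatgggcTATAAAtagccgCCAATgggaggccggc
Gatm: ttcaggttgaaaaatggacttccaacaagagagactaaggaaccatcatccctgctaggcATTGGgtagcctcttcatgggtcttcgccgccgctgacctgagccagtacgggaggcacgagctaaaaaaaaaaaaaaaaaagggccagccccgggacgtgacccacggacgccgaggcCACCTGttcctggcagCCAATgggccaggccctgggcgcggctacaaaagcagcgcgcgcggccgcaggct
The Ckb window held 1 TATA box and 2 CCAAT boxes, and its TATA box began 28 bases before the start. The Gatm window held 2 CCAAT boxes and 1 E-box, and the Ckm window held 1 E-box and no match to the other letters. Of 32851 windows of this length in the same table, 66.2% held an E-box, 12.4% a TATA box and 33.8% a CCAAT box. These matches describe the letters only, and no binding was measured here.

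Library totals ran from 50.5 to 62.1 M estimated counts. The 7 markers of muscle fibres that were listed (such as Acta1 and Myh4) were high in every library, with a summed level of 75865 to 117933 CPM (counts per M, scaled by TMM) in controls and 78976 to 114868 CPM in scMC38. Some libraries stood apart, and their values are given beside the genes they touch. scMC38 3 and, at lower levels, scMC38 1 held mRNA of bone cells and of marrow: the sum of 7 bone markers was 593 and 76.8 CPM in these libraries, against 6.48 to 22.9 CPM in the other 6. The sum of 9 neutrophil and marrow progenitor markers was 4104 and 453 CPM there. It was 10.0 CPM in scMC38 2, 31.1 CPM in scMC38 4 and 0.819 to 7.04 CPM in controls. Of the 7 of these markers that were tested, 4 were higher in all 4 scMC38 libraries, against 6.82% of all genes. Control 1 and control 2 held 24.3% and 29.7% of their counts in mitochondrially encoded genes, against 14.4% to 18.9% in the other 6, and a group difference in this share was not detected (exact permutation p = 0.257, two-sided, n = 4 each).

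None of the 10 genes passed the test between tumour-bearing and control mice. With edgeR's quasi-likelihood test and Benjamini-Hochberg adjustment over all genes, 0 were higher and 0 lower at an adjusted p under 0.05, where 0.737% of all genes were called higher and 0.468% lower (1.20% in either direction). At an unadjusted p under 0.05 there was 1 of 10 (Gamt, lower), against 21.0% of all genes. DESeq2, run as an alternative, called 1 of 10 (Gamt, lower), against 10.1% of all genes, and held 4 of 10 at an unadjusted p under 0.05 (Gamt, Ckmt2, Ampd1 and Ak1), against 23.2%. In none of the 10 did the 4 scMC38 libraries lie entirely on 1 side of the 4 controls, a separation seen in 13.3% of all genes. The median log2 fold change (scMC38 minus control) was -0.07 over the 10 genes and 0.00087 over all genes. A p that misses the threshold does not show equal levels, so each difference is given with its 95% interval.

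**Figure D1:**
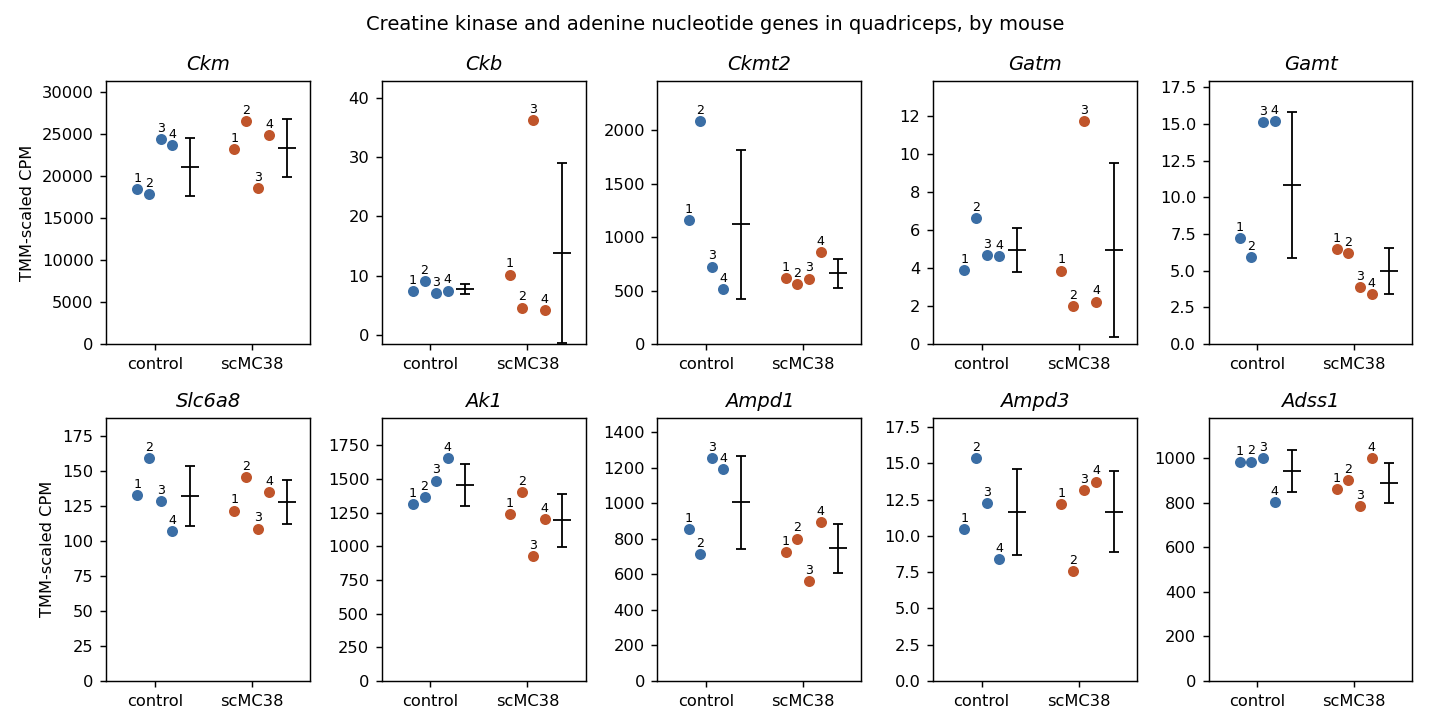
TMM-scaled CPM of each of the 10 genes in each mouse, with the replicate number above each point and the mean ± SD of each group (n = 4) as a bar beside it. The groups overlap in every panel, and scMC38 3 stands high in Ckb and Gatm, and controls 3 and 4 in Gamt and Ampd1.

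Ckm mRNA was among the most abundant in the tissue. It took 1.61% to 2.65% of all counts of a library and ranked 10th by mean CPM in controls. Its level was 18386, 17794, 24334 and 23661 CPM in controls 1 to 4 and 23183, 26495, 18506 and 24877 CPM in scMC38 1 to 4. The lowest 3 values were those of controls 1 and 2 and of scMC38 3, so the groups overlapped. The log2 fold change was 0.14 (SE 0.19, 95% interval -0.28 to 0.57, adjusted p = 0.686), so that differences beyond 1.49-fold higher or 0.823-fold lay outside the interval.

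Ckmt2, the mitochondrial creatine kinase of striated muscle, varied most among the controls. It stood at 1157, 2084, 725 and 513 CPM in controls 1 to 4 and at 619, 559, 614 and 862 CPM in scMC38 1 to 4. Controls 1 and 2 were the highest of the 8, control 3 lay within the scMC38 range and control 4 was the lowest of all. The mean was 1120 ± 696 CPM in controls and 663 ± 135 CPM in scMC38 (SD, n = 4), with a log2 fold change of -0.76 (SE 0.40, 95% interval -1.66 to 0.14, adjusted p = 0.308). The difference leaned most on control 2: it was -0.74 without control 1, -0.27 without control 2 and 0.09 without controls 1 and 2 together. Since these were the highest controls, leaving them out lowers the control mean by construction. Controls 1 and 2 held the largest shares of mitochondrially encoded counts. They were also highest for Myh2, the myosin of IIA fibres (1306 and 2296 CPM, against 9.43 to 561 CPM in the other 6). Myh1 was highest in control 2 (5306 CPM), but scMC38 4 (3715 CPM) was above control 1 (3561 CPM). Control 2 was highest for the 5 slow fibre markers (734 CPM summed, against 0.437 to 199 CPM in the other 7). In control 1 this sum was 34.6 CPM, below control 3 (199 CPM), scMC38 1 (142 CPM) and scMC38 4 (83.0 CPM). Myh2, and Myh1 of IIX fibres, were chosen for this comparison after their values were seen. The part of these fibre markers and of the mitochondrial share in the Ckmt2 values was not tested.

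Ckb was low in this muscle and set apart by 1 library. Its level was 7.40, 9.08, 7.02 and 7.47 CPM in controls 1 to 4 and 10.2, 4.58, 36.3 and 4.18 CPM in scMC38 1 to 4. The controls spanned a narrow range, scMC38 3 and scMC38 1 were above all of them, and scMC38 2 and scMC38 4 were below all of them. The log2 fold change was 0.84 (SE 0.64, 95% interval -0.61 to 2.29, adjusted p = 0.473). It was -0.30 without scMC38 3, and -0.80 (adjusted p = 0.0637) without scMC38 1 and scMC38 3 together. That last fit called 0.445% of all genes at an adjusted p under 0.05, and Ckb was not among them. For Ckb, scMC38 1 and scMC38 3 were the highest scMC38 libraries, so leaving them out lowers the scMC38 mean by construction. Of the bone genes, Acp5 and Ctsk, which osteoclasts express, stood at 230 and 121 CPM in scMC38 3. They were at 14.2 and 14.6 CPM in scMC38 1, 8.69 and 1.82 CPM in scMC38 2, and 2.64 and 1.62 CPM in scMC38 4. All 7 bone markers were highest in scMC38 3. In scMC38 1, Ctsk, Ibsp, Bglap and Bglap2 were above all controls. Acp5 (14.2 CPM) and Dmp1 (1.27 CPM) were below control 4 there, and Phex (0.590 CPM) was below all controls. In the controls Acp5 was at 1.31 to 16.1 CPM and Ctsk at 3.62 to 6.02 CPM, and the bone marker Ibsp was at 0 in 3 controls and in scMC38 2. Smooth muscle markers, 5 genes summed, were at 166 to 229 CPM in controls and 122 to 148 CPM in scMC38. Of the 5, 2 were lower in all 4 scMC38 libraries, against 6.45% of all genes. Of the 4 fibroblast markers, Col1a1, which bone-forming cells also express, stood at 2215 CPM in scMC38 3 and 30.9 to 234 CPM in the other 7 libraries. The other 3 (Dcn, Pdgfra and Lum) stood in scMC38 3 within the range of the other 7. The 5 macrophage markers summed to 131 and 119 CPM in scMC38 3 and 1 and to 35.8 to 73.8 CPM in the other 6. The part of these cell types in the Ckb values was not tested. In bulk tissue, fewer cells of a type and less RNA per cell cannot be told apart.

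Levels were also compared per length, as CPM per kb of the longest principal transcript in GENCODE M21. On this scale Ckm stood at 7675 ± 1251 in controls, Ckmt2 at 754 ± 469 and Ckb at 5.26 ± 0.621 (SD, n = 4). The lengths used were 2742 bases for Ckm, 1486 for Ckmt2 and 1472 for Ckb. A shorter Ckm transcript would raise its share. Of the summed level of these 3 mRNAs, Ckmt2 made up 10.4% and 17.8% in controls 1 and 2, 5.21% and 3.85% in controls 3 and 4, and 3.74% to 6.00% in the scMC38 libraries. Ckb made up 0.0509% to 0.0781% in controls, 0.0294% to 0.0777% in scMC38 1, 2 and 4, and 0.344% in scMC38 3. The muscle isoform thus supplied most creatine kinase mRNA in every library, from 82.2% in control 2 to 96.2% in scMC38 2. These shares are descriptions without a test.

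**Figure D2:**
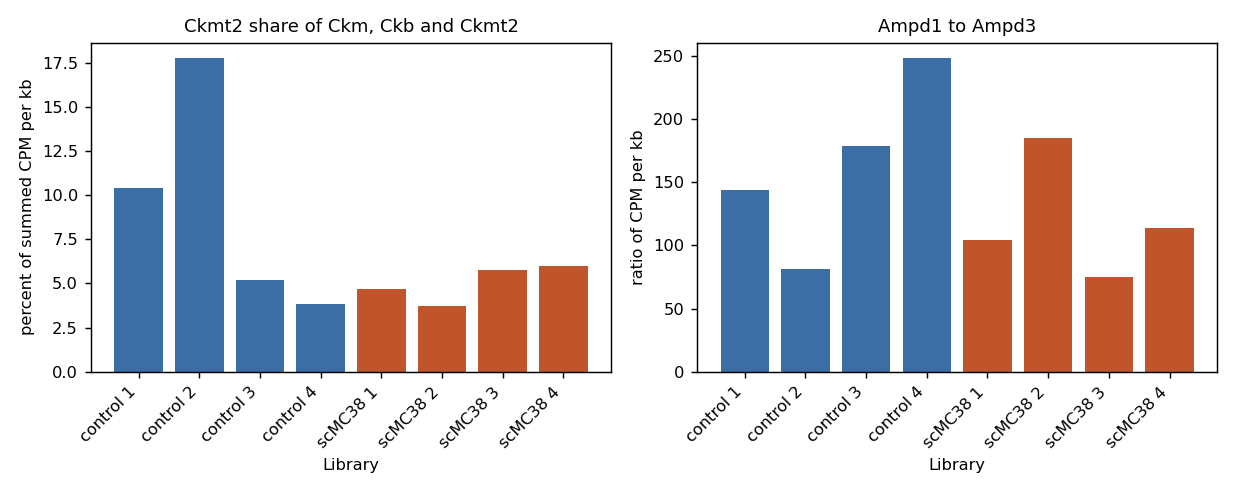
Left, Ckmt2 as a percentage of the summed CPM per kb of Ckm, Ckb and Ckmt2 in each library; right, the ratio of Ampd1 to Ampd3 in CPM per kb. Controls are blue and scMC38 libraries orange. The Ckmt2 share is highest in controls 1 and 2, and the Ampd1 to Ampd3 ratio runs from 75.0 in scMC38 3 to 248 in control 4.

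Among the creatine supply genes, Gamt, which encodes the enzyme that methylates guanidinoacetate to creatine, had the smallest p of the 10. Its level was 7.22, 5.91, 15.1 and 15.2 CPM in controls 1 to 4 and 6.48, 6.23, 3.90 and 3.41 CPM in scMC38 1 to 4. Controls 3 and 4 stood above the other 6 libraries, control 1 lay above all scMC38 libraries, and control 2 lay within their range. The mean was 10.9 ± 4.99 CPM in controls and 5.0 ± 1.57 CPM in scMC38 (SD, n = 4). The fitted difference on the log2 scale was -1.12 (SE 0.36, 95% interval -1.93 to -0.30), with an adjusted p of 0.137 by edgeR. DESeq2 gave -1.11 and an adjusted p of 0.0275, while edgeR under 15 alternatives gave -1.61 to -0.91 and adjusted p from 0.136 to 0.382. The call therefore depended on the tool. The counts behind these values ran from 173 to 834 per library.

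Gatm, which encodes the enzyme of the first step of creatine synthesis, followed another order. It stood at 3.90, 6.64, 4.68 and 4.64 CPM in controls 1 to 4 and at 3.88, 2.01, 11.7 and 2.25 CPM in scMC38 1 to 4. As with Ckb, scMC38 3 was the highest of the 8 libraries and scMC38 2 and scMC38 4 the lowest. Unlike for Ckb, scMC38 1, the other library with bone mRNA, lay below all controls (3.88 CPM, against 3.90 CPM in control 1). The log2 fold change was 0.0064 (SE 0.53, 95% interval -1.21 to 1.22, adjusted p = 0.996). Without scMC38 3 it was -0.87 (adjusted p = 0.149), and without scMC38 1 and 3 together -1.20 (adjusted p = 0.0734). Ckb and Gatm were the only 2 of the 10 genes at an unadjusted p under 0.05 in that last fit of edgeR, where 18.8% of all genes were. For both genes scMC38 1 and 3 were the highest scMC38 libraries, so leaving them out lowers the scMC38 mean by construction. The bone marker values given beside Ckb apply here too, and their part in the Gatm values was not tested.

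**Figure D3:**
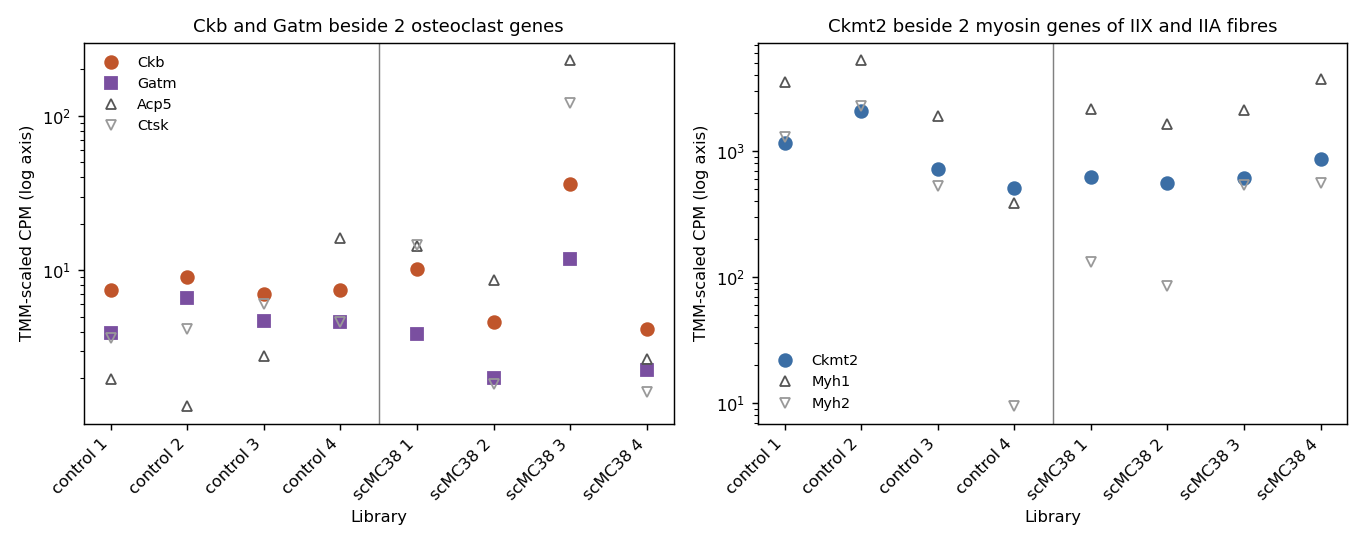
TMM-scaled CPM by library on a log axis. Left, Ckb and Gatm beside the osteoclast genes Acp5 and Ctsk, with all 4 at their highest in scMC38 3; right, Ckmt2 beside the myosin genes Myh1 (IIX fibres) and Myh2 (IIA fibres), with all 3 at their highest in control 2.

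Slc6a8, the creatine transporter gene, was the steadiest of the supply genes. Its level was 133, 159, 129 and 107 CPM in controls 1 to 4 and 122, 145, 109 and 135 CPM in scMC38 1 to 4. The highest and the lowest value were both from controls. The log2 fold change was -0.05 (SE 0.14, 95% interval -0.36 to 0.27, adjusted p = 0.869), and 0.057 with total-count scaling. Per length, Slc6a8 stood at 39.8 ± 6.49 CPM per kb in controls, Gamt at 10.99 ± 5.05 and Gatm at 2.08 ± 0.491 (SD, n = 4), so the mRNA for uptake was more abundant than either mRNA for synthesis.

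Ak1, which encodes the main cytosolic adenylate kinase of muscle, stood at 1310, 1363, 1486 and 1656 CPM in controls 1 to 4. In scMC38 1 to 4 it stood at 1239, 1399, 925 and 1204 CPM. scMC38 2 lay within the control range, and the other 3 scMC38 libraries lay below all controls. The mean was 1454 ± 153 CPM in controls and 1192 ± 197 CPM in scMC38 (SD, n = 4), and the difference on the log2 scale was -0.29 (SE 0.15, 95% interval -0.63 to 0.06, adjusted p = 0.311). It was -0.18 without scMC38 3, the lowest library, and -0.14 without scMC38 1 and 3 together.

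Of the purine nucleotide cycle genes, Ampd1, the muscle AMP deaminase gene, stood at 857, 717, 1257 and 1194 CPM in controls 1 to 4. It was at 727, 802, 564 and 894 CPM in scMC38 1 to 4. Controls 3 and 4 were above the other 6 libraries, as for Gamt, while controls 1 and 2 lay among the scMC38 values. The log2 fold change was -0.43 (SE 0.22, 95% interval -0.92 to 0.06, adjusted p = 0.289). It was -0.72 (adjusted p = 0.324) without controls 1 and 2 together and -0.23 without scMC38 1 and 3 together. In the fit without controls 1 and 2, Ampd1 and Gamt were the 2 of 10 genes at an unadjusted p under 0.05, against 10.9% of all genes, and edgeR called no gene at all. For both genes controls 1 and 2 were the lowest controls, so leaving them out raises the control mean by construction. For Ampd1, scMC38 1 and 3 were likewise the lowest scMC38 libraries, so leaving those out raises the scMC38 mean. Controls 1 and 2 are those with the larger mitochondrially encoded share, whose part in the Gamt and Ampd1 values was not tested.

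Ampd3, the AMP deaminase gene of red cells and other tissues, was at 10.4, 15.4, 12.3 and 8.41 CPM in controls 1 to 4. It was at 12.2, 7.59, 13.2 and 13.7 CPM in scMC38 1 to 4. Control 4 and scMC38 2 were the lowest, control 2 was the highest, and the groups overlapped. The group means were 11.6 ± 2.95 and 11.7 ± 2.79 CPM (SD, n = 4), and the log2 fold change was 0.0046 (SE 0.23, 95% interval -0.51 to 0.52, adjusted p = 0.994). Changes beyond 1.43-fold higher or 0.702-fold lay outside this interval. Red cell markers stood higher in the scMC38 libraries: the sum of 11 erythroid genes was 610 to 1178 CPM in controls and 1737 to 2980 CPM in scMC38. Of these, 7 of the 9 tested were higher in all 4 scMC38 libraries, against 6.82% of all genes. Slc25a37 and Bpgm overlapped between the groups, with log2 fold changes of 0.44 and -0.23. The part of the red cell markers in the Ampd3 level was not tested.

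Adss1, the muscle adenylosuccinate synthetase gene, varied least of the 10, with a ratio of 1.27 between the highest and the lowest library. It stood at 981, 985, 1001 and 803 CPM in controls 1 to 4 and at 860, 900, 785 and 1001 CPM in scMC38 1 to 4. The log2 fold change was -0.09 (SE 0.12, 95% interval -0.37 to 0.19, adjusted p = 0.709), and 0.013 with total-count scaling. Control 4 lay apart from the other 3 controls, and the groups overlapped. Control 4 also held the highest sum of the 5 adipocyte markers, 210 CPM against 17.96 to 39.5 CPM in the other controls and 35.8 to 112 CPM in scMC38. It was lowest for Myh2 (9.43 CPM, then 84.8 CPM in scMC38 2) and Myh1 (386 CPM, then 1632 CPM in scMC38 2). Its slow fibre sum was lowest too (0.437 CPM, then 0.776 CPM in scMC38 2). The part of the adipocyte and fibre markers in the Adss1 value was not tested. Per length, the ratio of Ampd1 to Ampd3 ran from 81.5 to 248 in controls and from 75.0 to 185 in scMC38, so the muscle form was the main AMP deaminase mRNA in all 8 libraries.

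**Figure D4:**
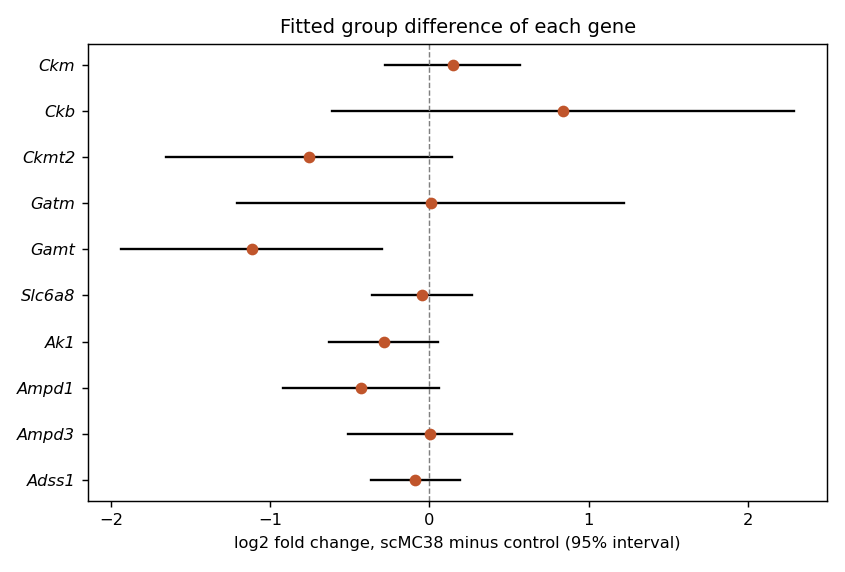
Fitted log2 fold change of each gene (scMC38 minus control, edgeR, 4 libraries a group) with its 95% interval as a line and 0 as a dashed line. The intervals of 9 genes cross 0, that of Gamt (-1.93 to -0.30) does not before adjustment for the number of genes tested, and those of Ckb and Gatm are widest.

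The 10 genes differed in how far they varied among mice. The ratio of the highest to the lowest library was 8.70 for Ckb, 5.86 for Gatm, 4.46 for Gamt and 4.06 for Ckmt2, 2.23 for Ampd1, 2.03 for Ampd3 and 1.79 for Ak1, and 1.49 for both Ckm and Slc6a8. In controls the coefficient of variation was largest for Ckmt2 (62.2%) and Gamt (46.0%), and in scMC38 for Ckb (111%) and Gatm (92.5%). Within controls, Ckmt2 was high where Gamt and Ampd1 were low (controls 1 and 2) and low where they were high (controls 3 and 4). Within scMC38, the library with the highest Ckb and Gatm (scMC38 3) had the lowest Ckm, Ampd1, Ak1, Adss1 and Slc6a8 of the 4. Its summed level of the 7 muscle fibre markers was also the lowest of these 4. That sum was 78976 CPM in scMC38 3, against 109642 to 114868 CPM in the other scMC38 libraries. Among controls it was lowest in control 2, at 75865 CPM. The part of a lower muscle fibre share in the values of the 10 genes was not tested.

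**Figure D5:**
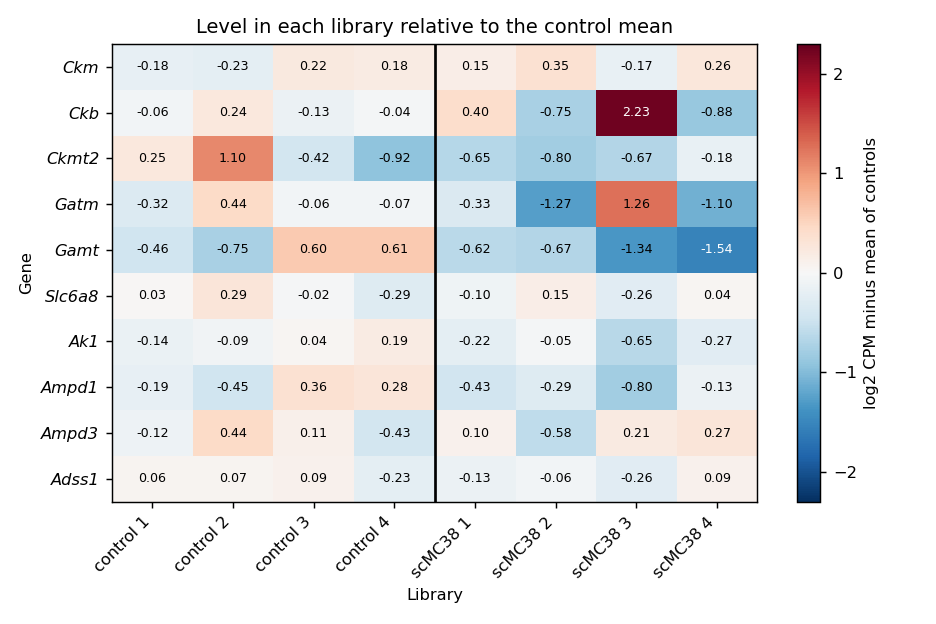
Level of each gene in each library as log2 CPM (prior count 2) minus the mean of the controls, from blue (lower) to red (higher). The largest values are 2.23 for Ckb and 1.26 for Gatm in scMC38 3 and 1.1 for Ckmt2 in control 2, and the lowest is -1.54 for Gamt in scMC38 4.

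The tested genes whose log2 CPM was most like that of Gamt over the 8 libraries were Spon1, Pld2, Col4a3, Caprin2 and Adamts12. Pearson's r lay between 0.952 and 0.974, as a description, since the 8 points share their libraries and the genes were picked from all those tested. Their log2 fold changes ran from -0.87 (Col4a3) to -0.35 (Caprin2), and none was called.

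Another 55 genes that act beside the 10 were listed by role, of which 49 passed the filter on low counts. edgeR called 0 of the 49. At an unadjusted p under 0.05, 5 were higher (Gda, Impdh2, Gart, Aprt and Nt5e) and 3 lower (Nt5c3, Ak3 and Prkag3), where 11.2% and 9.77% of all genes were. Aprt and Nt5e were named after their values were seen. DESeq2 called 3 higher (Gda, Impdh2 and Gart) and 2 lower (Ak3 and Nt5c3), 5 of 49 where it called 10.1% of all genes, so that the count was near the background. In 4 genes (Gda, Impdh2, Gart and Aprt) all scMC38 libraries were above all controls and in 2 (Nt5c3 and Ak3) they were below, against 6.82% and 6.45% of all genes. The median log2 fold change of the 49 was -0.02.

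The 2 genes with the smallest p belonged to purine breakdown and synthesis. Impdh2, which encodes the IMP dehydrogenase that leads from IMP towards GTP, stood at 40.7, 43.8, 46.6 and 39.3 CPM in controls 1 to 4 and at 54.0, 53.8, 55.6 and 60.9 CPM in scMC38 1 to 4. Its log2 fold change was 0.40 (SE 0.079, adjusted p = 0.0568). Gda, guanine deaminase, stood at 12.5, 17.3, 17.1 and 21.7 CPM in controls and at 42.3, 32.0, 77.3 and 33.5 CPM in scMC38, with 1.43 on the log2 scale (SE 0.30, adjusted p = 0.0658). It was highest in scMC38 3 and then scMC38 1, the libraries with bone and marrow mRNA, whose part in the Gda values was not tested. The value was 1.07 without scMC38 3 (adjusted p = 0.0526) and 0.95 without both (adjusted p = 0.0798). The groups did not overlap for either gene, and neither passed the threshold of edgeR. Impdh2 passed it with total-count scaling (adjusted p = 0.0327) and with the filter of at least 1 CPM in 4 libraries (adjusted p = 0.0484). Over its other edgeR alternatives Impdh2 gave adjusted p from 0.0649 to 0.347.

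None of the other named genes passed the test either. Nt5c3, a nucleotidase gene, was at 31.0 to 33.7 CPM in controls and 26.5 to 29.0 CPM in scMC38 (log2 fold change -0.26, adjusted p = 0.0849). Ak3, the adenylate kinase of the mitochondrial matrix, was at 66.4 to 77.8 CPM in controls and 54.6 to 65.0 CPM in scMC38 (log2 fold change -0.28, adjusted p = 0.115). In the salvage and synthesis group Gart, which encodes an enzyme of purine ring synthesis, had 0.27 (adjusted p = 0.131). Among AMP-activated kinase genes Prkag3, the regulatory subunit of fast muscle, went from 114 ± 41.3 to 72.8 ± 16.2 CPM (SD, n = 4), with -0.65 (adjusted p = 0.224), and Prkab1 had 0.22. The mitochondrial ATP carrier gene Slc25a4 had -0.37 (adjusted p = 0.287) and the outer membrane channel gene Vdac2 -0.19. None of the 5 tested genes of that group was at an unadjusted p under 0.05 by edgeR. Of the remaining cycle genes, Adsl, which encodes adenylosuccinate lyase, had -0.07 (adjusted p = 0.798) and Ampd2, another AMP deaminase gene, had 0.14 (adjusted p = 0.812).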

How the data were processed

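RNA of 8 quadriceps was sequenced, 1 library per mouse. Per the labels' protocols, RNA was column-purified (RNeasy Mini) and libraries came from the Universal Plus mRNA-seq kit. Salmon 1.10.3, fastp 1.0.1, FastQC 0.12.1, MultiQC 1.30, R 4.4.3 and the build GRCm39 are listed, without roles, in the submitters' processing notes. For annotation release and strand handling, nothing is given in the sources used here, and overlapping genes may share reads. The values the authors deposited are estimated counts, unscaled (49.3% of nonzero values carry a fraction).

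Groups came from sample titles and columns were matched by library name. Of 35667 rows, 144 without a symbol were left out (at most 0.00403% of a library). Rows of 26 repeated symbols were summed and values rounded. All pairs of libraries within a group differed beyond counting noise. edgeR 4.0.16 (R 4.3.3) was used with filterByExpr (minimum count 10, minimum total 15), TMM, robust quasi-likelihood F tests and Benjamini-Hochberg adjustment over 14112 genes, with 0.05 as threshold. The script was tested on simulated data. The common biological coefficient of variation was 27.3%, so the spread between mice, not depth, limits precision. Intervals use the SE implied by F. DESeq2 1.42.0, other scalings and filters, left-out libraries and a replicate block were alternatives. All 10 genes, and in each role of the related list the 2 with the smallest p, were named by rule, and 1 gene that the rule selects is not reported here. Nt5c1b, Ak5, Ak7, Ak8, Ak9 and Ckmt1 failed the filter. The members and lists were chosen with earlier results of these data known.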

Additional observations from a re-analysis of the deposited data

Results flagged for a closer look

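Of the 20 groups of 4 values (10 genes in 2 groups), 1 held a library far from the others by Dixon's criterion. Adss1 stood at 803 CPM in control 4, against 981 to 1001 CPM in the other 3 controls, so that the gap was 0.899 of the group's range, above the 95% critical value for 4 samples. The adipocyte markers were also highest in control 4, at 210 CPM summed against 17.96 to 39.5 CPM in the other controls. Myh2 (9.43 CPM), Myh1 (386 CPM) and the slow fibre sum (0.437 CPM) were lowest there. The part of these markers in the Adss1 value was not tested. Chance gives a gap above the critical value in about 1 in 20 groups. The scMC38 groups of Ckb (0.814) and Gatm (0.808) came close, both through scMC38 3. So did the scMC38 group of Ckmt2 (0.8, through scMC38 4) and the control group of Ckb (0.783, through control 2).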

How the results depend on the processing

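Under edgeR, 0 of the 10 genes were called in every alternative run: 2 other scalings, 2 other filters, 8 fits that leave out 1 library, 2 that leave out a pair, and the replicate block. DESeq2 called 1 lower. Of the related genes, total counts and the filter of at least 1 CPM in 4 libraries each called 1 higher, and DESeq2 called 3 higher and 2 lower. Over all genes, 104 higher and 66 lower calls became 216 and 51 with total counts, 829 and 597 with DESeq2, and 69 and 45 with no filter. They became 25 and 39 without scMC38 1 and 3, none without controls 1 and 2, and 1 to 59 higher and 1 to 52 lower without 1 library. Total counts shifted the median of all genes by 0.11 and turned Adss1 to 0.013 and Slc6a8 to 0.057 on the log2 scale. Leaving out 1 library gave log2 fold changes of -0.12 to 0.17 for Ampd3, -0.30 to 1.14 for Ckb, -0.87 to 0.27 for Gatm and -0.14 to 0.054 for Slc6a8. Without scMC38 1 and 3 together, Adss1 stood at 0.033, Ampd3 at -0.10, Ckb at -0.80, Gatm at -1.20 and Slc6a8 at 0.11. Without controls 1 and 2 together, Ckm stood at -0.055, Ckmt2 at 0.088 and Slc6a8 at 0.11. The cause of these reversals was not tested, beyond the library values given above. Over all alternatives, 23 of the fitted differences of single genes changed sign and 136 kept sign and side of the threshold. No pairing of the mice by replicate number was seen: deviations of same-numbered libraries correlated at -0.113, -0.281, -0.0058 and -0.245 for numbers 1 to 4. Those of unlike-numbered libraries correlated at -0.163 to 0.301. With so few libraries these values cannot exclude a pairing. With the replicate block, 0 members, 0 related genes and 1 of all genes (lower) were called, and Gatm stood at -0.37. Counts of at least 106 per library lay behind every value of the 10 genes, so depth was not what limited these comparisons.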
